A study of Mus musculus with 8 samples.

Results

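The mouse T-cell receptor beta locus on chromosome 6 and its surroundings were examined for DNA copy number in 8 samples. The members were all non-control array probes with an mm9 position from 40.0 to 42.5 Mb on chromosome 6, chosen by position alone: 321 probes of 235402 on the array. The receptor locus, at about 40.84 to 41.51 Mb, held 90 of them. Of these, 84 lay in the stretch of V segments and trypsinogen genes (the V part) and 6 in the D, J and C clusters at about 41.47 to 41.51 Mb (the D/J/C part). The other 231 probes were flank, 99 before the locus and 132 after it. Neighbouring probes of the locus lay a median of 6.51 kb apart, and the longest gap was 31.7 kb.

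Each sample was hybridised once on an Agilent comparative genomic hybridisation array, with its own DNA in Cy5 and, as reference in Cy3, normal Balb/c wild-type DNA. All 8 samples came from Balb/c mice that had received a bone marrow transplant and carried SEC31A-JAK2, a fusion that joins SEC31A to the tyrosine kinase JAK2, so no tumour without the fusion was measured. Primary T-lymphoblastic lymphoma (T-LBL) was represented by 3 samples, M7 and M9 from spleen and M12 from a neck lymph node, and the 1 primary myeloid hyperplasia was M10 (bone marrow). The 4 secondary T-LBL, M12.49, M12.52 and M12.53 (pancreas) and M12.50 (neck lymph node), were derived from mouse 12. Values of the secondary arrays are given in this order of mouse number, M12.49 to M12.53, wherever they are listed without names. M12 and these 4 are called the mouse 12 lineage here. They share 1 origin, so a p-value that counts them as separate arrays is not support from 5 independent tumours. The promoter or vector of the fusion, the ages of the mice and the tissue of the reference DNA are not given in the sources used here. The samples are genomic DNA, so the labelled cell type could not be checked against expressed markers.

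The receptor beta chain is assembled in developing T cells by V(D)J recombination. The RAG recombinase first joins a D segment to a J segment, usually on both chromosomes, and then a V segment to the joined DJ, with allelic exclusion limiting functional joining to 1 chromosome in most cells. The DNA between the joined segments is cut out and lost from the chromosome. A T cell and its descendants therefore carry fewer copies of that DNA than a myeloid cell, and a clone carries the same ends in every cell. The constant segment Trbc2 lies beyond all the joining segments and is kept. Trbc1 lies before the Trbj2 segments, so joining a V segment from before Trbd1 to one of these cuts Trbc1 out.

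In the RefSeq gene order of GRCm38.p6, which is another build than the mm9 of the probes and was used for names and order only, the locus runs from Trbv1 to Trbv31. It holds 22 V segments and 13 V pseudogenes, 2 D segments, 13 J segments and 1 J pseudogene, and 2 C regions. The V segments before Trbd1 number 34 with their pseudogenes. Trbd1, the Trbj1 segments and Trbc1 come first, and Trbd2, the Trbj2 segments and Trbc2 follow. Trbv31, which lies after Trbc2 in this order, joins by inversion. Trypsinogen and related serine protease genes, which encode digestive enzymes of the pancreas, sit inside the locus: 5 protein-coding genes between Trbv1 and Trbv2, and 8 between Trbv30 and Trbd1, the last being Prss2.

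Similar sequences matter for what a 60-base probe can tell apart. Some of the trypsinogen genes between Trbv30 and Trbd1 have near-identical bases before their start. The 100 bases before the start of 4 of them are shown from the RefSeq table of GRCm38.p6 promoters, 5′ to 3′ on the gene's own strand (plus for Prss1 and Gm5771, minus for Prss3 and Gm10334), with the TATA motif TATAAA in capitals.
Prss1: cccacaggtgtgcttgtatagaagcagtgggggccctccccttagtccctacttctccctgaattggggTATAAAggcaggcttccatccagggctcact
Gm5771: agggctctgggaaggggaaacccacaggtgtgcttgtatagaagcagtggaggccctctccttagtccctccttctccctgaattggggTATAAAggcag
Prss3: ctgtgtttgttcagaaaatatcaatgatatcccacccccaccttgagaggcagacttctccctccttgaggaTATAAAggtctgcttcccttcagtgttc
Gm10334: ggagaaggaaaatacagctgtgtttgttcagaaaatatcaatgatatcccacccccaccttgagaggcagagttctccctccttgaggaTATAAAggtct
Aligned on the motif, Prss1 and Gm5771 were identical at 77 of 80 bases, and Prss3 and Gm10334 at 82 of 83. Prss1 and Prss3 were identical at only 42 of 97, so in these bases the 4 genes fell into 2 pairs. The genes themselves were not compared. The table held 10 of the 13 protein-coding genes of the locus and 8 of these 10 had the motif on either strand of the 100 bases, against 5.56% of all 32851 promoters in the table. The probe sequences were not used here, so whether a probe in this stretch reads more than 1 copy was not tested.

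The depth of measurement differed between arrays. The noise of a single log2 ratio (SD estimated from the median absolute difference between neighbouring autosomal probes) was 0.47 in M7, 0.43 in M12.52 and 0.22 to 0.28 in the other 6. In M7 the reference dye was well above background at 50.6% of the locus probes, against 100% on the other 7 arrays. M12.53 ran against most other arrays over all probes, with Pearson correlations of −0.31 to −0.50 with M10, M12 and the other 3 secondary arrays. Over the locus probes alone it correlated at 0.64 to 0.79 with the other 4 lineage arrays, while over the flank probes it correlated with them at −0.47 to −0.57. The labels state the dyes, so its direction was kept, and results that move with its sign are given with the sign turned too. Errors of a value from a single array are standard errors (SE) over its probes.

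A single stretch of the locus was lost in all 5 lineage arrays. Segmentation called a loss at chr6:41018389-41489670 in M12, M12.49, M12.50, M12.52 and M12.53, with the same first and last probe in each. It spanned 471 kb and 60 probes, 57 in the V part and the first 3 of the D/J/C part. The mean log2 ratio of sample over reference was −0.63 ± 0.06 (SE) in M12, and −0.92 ± 0.08, −0.92 ± 0.08, −1.07 ± 0.09 and −0.99 ± 0.06 in the secondary arrays. A log2 ratio of −1 is what the loss of 1 of 2 copies in every cell gives. Scaled to 2 copies in the reference, the means correspond to 1.29 copies in M12 and to 0.954 to 1.06 in the secondary tumours, so the long stretch was near 1 copy there. In bulk DNA, a loss in fewer cells and a loss of fewer copies per cell cannot be told apart. No segment of the region was called in M7, M9 or M10. Over the autosomes, called losses held 0.133% of the probe values of the 5 lineage arrays together and 0.0367% of those of M7, M9 and M10 together.

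**Figure D1:**
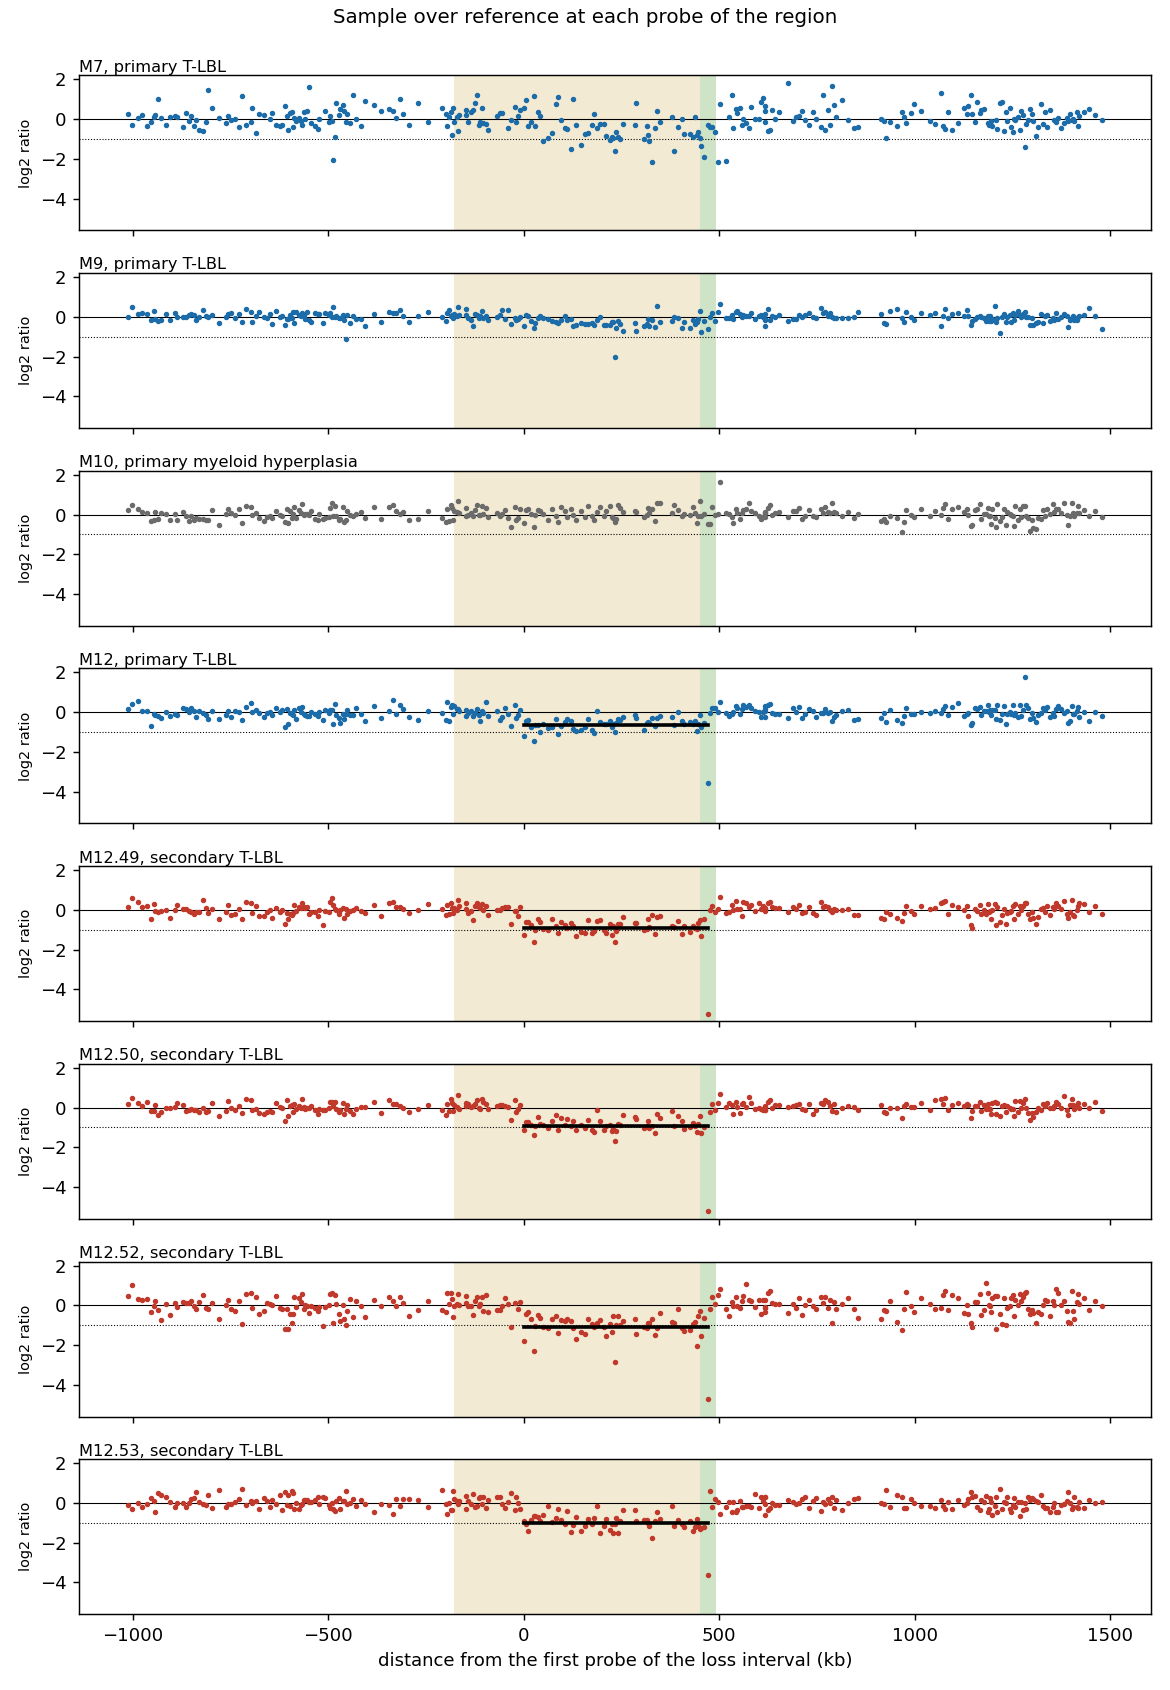
Log2 ratio of sample over reference at each of the 321 probes of the region (y axis) against distance from the first probe of the loss interval in kb (x axis), 1 panel per array. Beige marks the V part, green the D/J/C part, the black bar the called loss and the dotted line a log2 ratio of −1; the 5 lineage arrays drop at the same probes, and 1 probe at the end of the bar lies at −3.59 or below in each.

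Within the interval, the loss was carried by nearly every probe. The log2 ratio was below 0 at 58 of the 60 probes in M12 and at all 60 in each of the 4 secondary arrays, and below −0.25 at 54 in M12 and at 57 to 60 in the secondary arrays. Outside the interval, 10.7% to 26.5% of the other probes of the region were below −0.25 on the lineage arrays. The interval was placed with these same arrays, so these counts describe it and test nothing. In bins of 50 kb, the 10 bins of the interval had medians of −0.56 in M12 and of −0.81 to −0.97 in the secondary arrays, and the 40 other bins of the region had medians between −0.03 and 0.03 on these 5 arrays.

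The loss began inside the V part. The 27 locus probes before it, on the Trbv1 side, had mean log2 ratios of −0.03 ± 0.05 in M12 and 0.03 ± 0.05, 0.10 ± 0.05, 0.02 ± 0.07 and 0.06 ± 0.05 in the secondary arrays, M12.52 with 26 values, so this first stretch of the locus stood at the level of the flank. At the last retained probe, which starts at 41010073, M12 read 0.11 and the secondary arrays 0.17, 0.11, 0.19 and −0.28. At the first lost probe, which starts at 41018389, M12 read −1.20 and the secondary arrays −1.29, −1.12, −1.78 and −0.88. The first end therefore lies between these neighbouring probes in all 5. M9 and M10 also read low at that probe, at −0.45 both, and M7 read 0.56, so arrays with no called loss were low there too.

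The last end lay inside the D/J/C part, and there a single probe was far deeper than the rest. The probe that starts at 41489611, the last of the interval, read −3.59 in M12 and −5.26, −5.20, −4.72 and −3.60 in the secondary arrays. On the arrays with no called loss it read −0.31 in M7, −0.59 in M9 and −0.47 in M10. All 5 lineage arrays thus lay far below the other 3, with no overlap, although the reference dye of M7 was not well above background there. The probe was picked with these same arrays, and how often other probes part them in this way was not counted. Of 213166 to 221409 autosomal probes per array, 19 in M12 lay at or below the value of this probe. The secondary arrays had 1, 7, 2 and 21 such probes, against 46979 in M7, 6774 in M9 and 14698 in M10. In the 4 secondary arrays the sample dye was not well above background at this probe, with processed intensities of 40.1, 44.0, 68.8 and 73.5, while the reference dye read between 893 and 1787. Set against the lowest sample intensity that was well above background on each array, the reference was at least 9.02-fold, 28.1-fold, 7.69-fold and 10.8-fold brighter than the sample in the secondary arrays. Over the mean of these 4 log2 bounds it was at least 12.0-fold brighter (measured mean log2 ratio −4.70 ± 0.77, SD, n = 4). In M12 the sample dye was above background and the reference was 12.0-fold brighter, or 0.166 copies per 2 in the reference.

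The probes on either side of it were not lost to this depth. The neighbour before it, which starts at 41480645, read −0.53 in M12 and −0.48, −0.96, −0.65 and −1.23 in the secondary arrays, around the level of the long stretch. The probe that starts at 41471987, the first of the D/J/C part, read −0.77 in M12 and −1.27 to −1.54 in the secondary arrays. The neighbour after it, which starts at 41495139, read −0.03 in M12 and −0.02, −0.21, −0.19 and 0.59 in the secondary arrays, around the level of the flank. Across 3 neighbouring probes the secondary tumours thus stepped from about 1 copy to at least 7.69-fold below the reference on each array and back to its level. The last 3 probes of the D/J/C part averaged 0.08 ± 0.09 (SD, n = 5) in the lineage. The 59 other probes of the interval averaged −0.58 ± 0.04 (SE) in M12 and −0.85 to −1.01 in the secondary arrays, so the level of the long stretch did not rest on this probe.

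**Figure D2:**
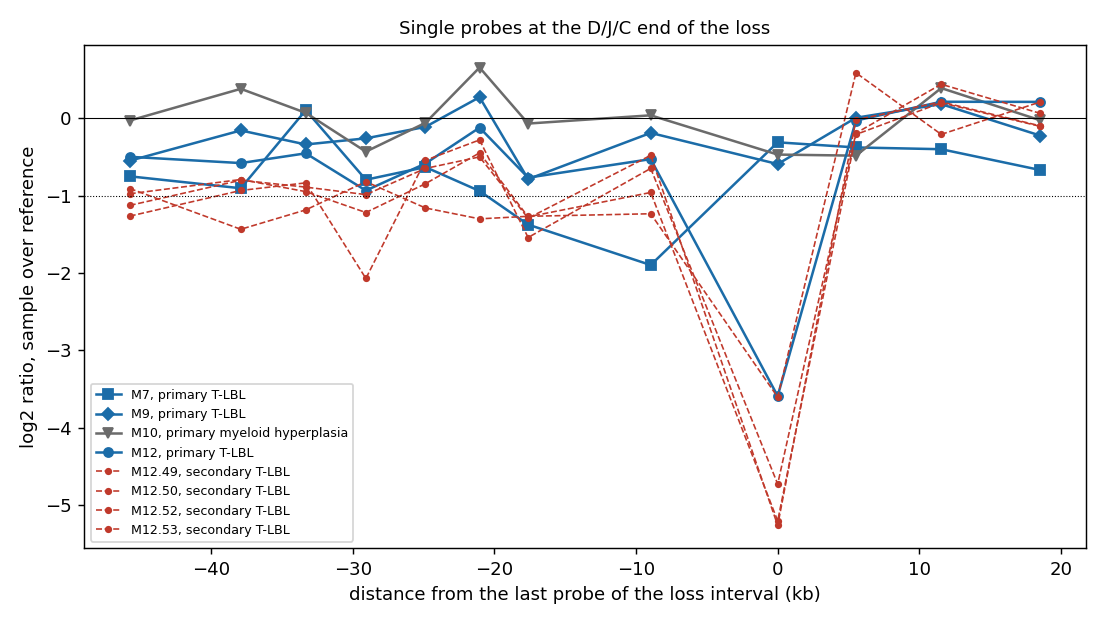
Log2 ratio of sample over reference at the last 12 probes of the receptor locus (y axis) against distance from the last probe of the loss interval in kb (x axis), 1 line per array. The 5 lineage arrays fall to between −3.59 and −5.26 at distance 0 and return to between −0.21 and 0.59 at the next probe; M7, M9 and M10 show no such drop.

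Because of this probe, the mean of the D/J/C part is not a mean over like values. It was −0.75 ± 0.59 (SE) in M12 and −1.16 ± 0.85, −1.26 ± 0.82, −1.10 ± 0.78 and −0.92 ± 0.62 in the secondary arrays. The medians over the 6 probes were −0.28 in M12 and −0.29, −0.58, −0.42 and −0.72 in the secondary arrays. In M7 it was −0.84 ± 0.27, in M9 −0.27 ± 0.15 and in M10 −0.10 ± 0.14. Tests on this part are given below with and without the probe.

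The windows of 10 consecutive probes used for the test across the genome trace the loss along the locus. In the 3 windows before the interval, from 40746993 to 40970047, all 8 arrays lay between −0.06 and 0.31. In the window that starts at 40978098, which holds the first end, the secondary arrays lay between −0.46 and −0.38, M12 at −0.35, M9 at −0.09, M10 at −0.05 and M7 at 0.17. From there to the last window, the 4 secondary arrays lay between −0.66 and −1.14 in every window. M10, the myeloid sample, lay between −0.04 and 0.23 in the same 6 windows and so did not show the loss.

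**Figure D3:**
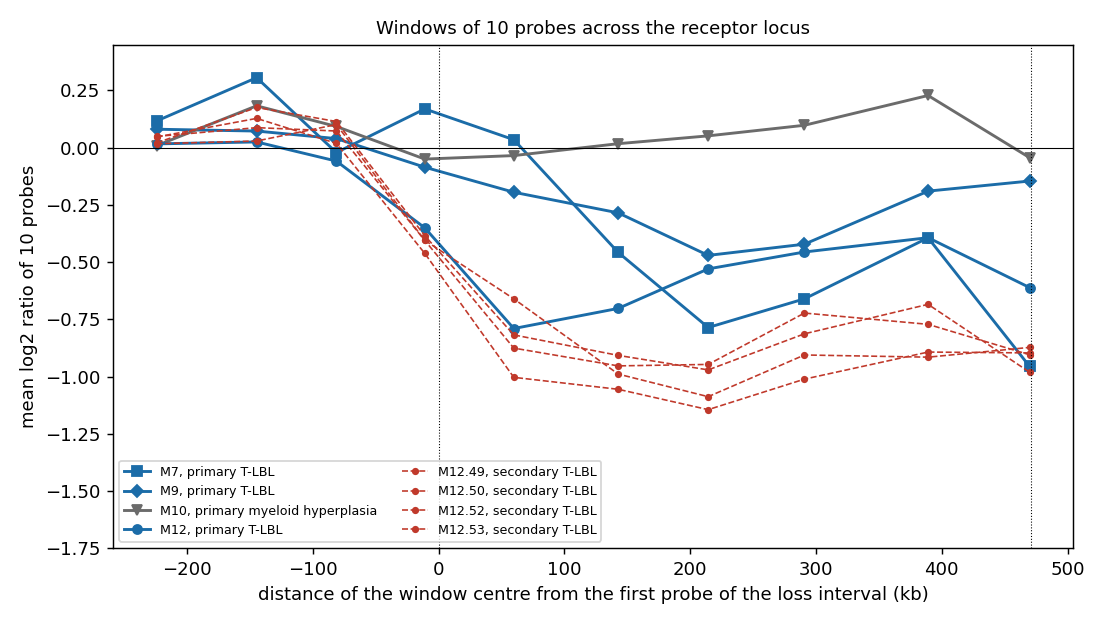
Mean log2 ratio of 10 consecutive probes (y axis) against distance of the window centre from the first probe of the loss interval in kb (x axis), for the 10 windows that overlap the receptor locus, 1 line per array; dotted lines mark the ends of the called loss. The secondary arrays stay between −0.66 and −1.14 inside it, M7 and M9 are shallower in most windows, and M10 stays near 0.

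The secondary tumours differed from the reference in 6 of the 10 locus windows (limma, Benjamini-Hochberg adjusted p under 0.05 over all windows), each lower, against 23 of 22135 autosomal windows (0.104%). These 6 were the only called windows among the 33 of the region. The lowest was the window from 41205049 to 41260280, in which M12.49 read −0.95, M12.50 −0.97, M12.52 −1.14 and M12.53 −1.09. Its mean was −1.04 ± 0.06 (SE) with a limma adjusted p of 0.000853. The window with the first end had a mean of −0.41 ± 0.07 and a limma adjusted p of 0.211, and 4 of its 10 probes lay inside the interval. With mouse of origin as a random block 3 of the region's windows were called, and with normexp background correction 0 were called, against 3 and 0 autosomal windows in all.

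The 3 primary T-LBL as a group were not called against the reference in any locus window (limma, 0 of 22135 autosomal windows called, 0.0%), although 6 of the 10 locus windows had an unadjusted limma p under 0.05, as did 634 autosomal windows. The window from 41205049 to 41260280 again had the lowest p of the locus, with M7 at −0.79, M9 at −0.47 and M12 at −0.53. Its mean was −0.60 ± 0.07 (SE) with a limma adjusted p of 0.331. Without M9, 4 windows of the region were called for this group, of 5 autosomal windows in all. With M10 subtracted 5 were called, beside 371 autosomal windows.

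M7 and M9 were lower than the reference over most of the interval without reaching a call. Over the 60 probes, whose ends came from other arrays, M7 averaged −0.46 ± 0.09 (SE) and M9 −0.30 ± 0.04, or 1.46 and 1.63 copies per 2 in the reference. With normexp background correction these means were −0.19 and −0.05. The log2 ratio was below 0 at 46 of the 60 probes in M7 and at 54 in M9, against 26 in M10, and below −0.25 at 70.0% of them in M7, 56.7% in M9 and 16.7% in M10. Elsewhere in the region, 25.6%, 11.9% and 16.5% of the probes were below −0.25 on these 3 arrays. Of 3674 other autosomal runs of 60 consecutive probes, 2 in M7 (0.0544%), 1 in M9 (0.0272%) and 3172 in M10 (86.3%) had a mean at or below that of the interval. The single such run of M9 lay at 54605651 to 55012411 on chromosome 14, the chromosome of the receptor alpha and delta chains, and read −0.32. Both runs of M7 lay on chromosome 4.

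The shifts in M7 and M9 varied along the locus. In M9 the windows from 41043508 on read −0.19 there, −0.28 at 41122850, −0.47 at 41205049, −0.42 at 41263957, −0.19 at 41358605 and −0.15 at the last window. In M7 the same windows read 0.03, −0.46, −0.79, −0.66, −0.39 and −0.96. The 30 probes nearer the V side averaged −0.23 ± 0.13 (SE) in M7 and −0.23 ± 0.03 in M9, and the 30 nearer the D/J/C side −0.69 ± 0.12 and −0.36 ± 0.08. In M7 the D/J/C side read lower, a difference that was not tested. In M9 the medians of the 30 probes were −0.25 and −0.29. Its windows nearest the D/J/C side were shallow, but only 6 of the 10 probes of the last window lay inside the interval. The D/J/C probes of M9 inside the interval read −0.79, −0.19 and −0.59.

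With a penalty of 3 in place of 6, a loss was also called in both. This laxer setting called 9 losses elsewhere on the autosomes in M7 and 4 in M9, and its losses held 0.278% of the autosomal probe values of M7, 0.11% of those of M9 and 0.0% of those of M10. In M9 it ran from 41036581 to 41489670, with the same last probe as in the lineage, over 57 probes at a mean of −0.31. That last probe read −0.59 in M9, but also −0.47 in M10, which had no called loss. In M7 the called loss ran from 41122850 to 41534921, beyond the D/J/C part, over 52 probes at −0.65. The 3 probes of M7 after the lineage's last end averaged −0.48 ± 0.09 (SE), where M9 averaged −0.01 ± 0.12. This SE rests on 3 probes only, while the noise of a single log2 ratio was 0.47 in M7. At the first of them, which starts at 41495139, neither dye of M7 was well above background. M10 read −0.48 at that probe and averaged −0.04 ± 0.25 over the 3. Fewer of the reference probes were above background in M7, as given above, and the part of this in its ends was not tested.

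The dyes were then read separately, since a ratio can fall through either. In the sample dye, each array centred on its autosomal median and set against M10, the interval averaged −0.99 ± 0.06 (SE) in M12 and −0.96 ± 0.08, −0.99 ± 0.07, −1.08 ± 0.07 and −1.03 ± 0.08 in the secondary arrays. Read this way, the primary tumour M12 was as low as the secondary tumours, although its ratio was shallower. M7 read −0.78 ± 0.15 and M9 −0.30 ± 0.05.

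In M12 the reference dye itself was low over the locus. Against the median of the other 7 arrays, its reference dye averaged −0.32 ± 0.04 (SE) in the interval, −0.07 ± 0.02 in the flank and 0.01 ± 0.03 over a loss on chromosome 12 described below. Along the locus it went from 0.00 in the window at 40746993 and −0.12 in that at 40978098 to −0.30 at 41122850, −0.45 at 41205049 and −0.42 at 41263957, and then to −0.30 and −0.31 in the last 2 windows. The reference dye of the 4 secondary arrays averaged 0.01 to 0.08 over the interval, that of M9 0.09 ± 0.04, that of M10 0.05 ± 0.03 and that of M7 −0.23 ± 0.15. The array of M12 was alone in its slide and its scan, so array, slide and reference DNA cannot be told apart in it, and the part of the reference dye in the shallower ratio of M12 was not tested beyond these values.

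**Figure D4:**
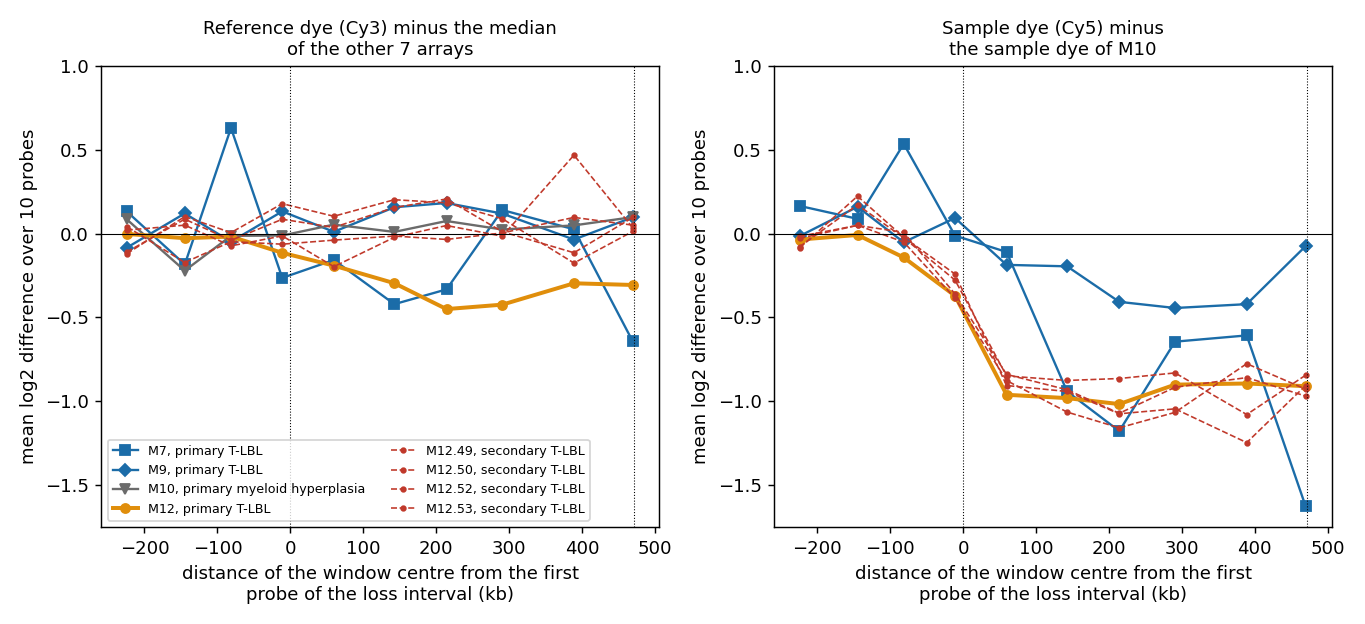
Mean log2 difference over 10 probes (y axis) against distance of the window centre from the first probe of the loss interval in kb (x axis), for the reference dye against the median of the other 7 arrays (left) and the sample dye against that of M10 (right); dotted lines mark the ends of the called loss. M12, in orange, runs with the secondary arrays in the sample dye and dips to −0.45 in the reference dye.

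The comparisons between groups asked whether the locus departed from its own flank and whether tumour groups differed in its depth. All use exact permutation tests over arrays, two-sided, with Benjamini-Hochberg adjustment within each family, and none is independent support, since the region was chosen with results of these arrays known and the lineage arrays share an origin. In the V part, M7 lay at −0.33 relative to its flank, M9 at −0.19 and M12 at −0.38. The secondary arrays lay at −0.55, −0.56, −0.66 and −0.61, and the myeloid M10 at 0.06. The V part was lower than the flank in 7 of 7 T-LBL, by a mean of −0.47 ± 0.17 (SD, n = 7; exact sign-flip p = 0.0156, the smallest 7 arrays allow, adjusted 0.0312 over 4 tests). Without any 1 of the primary tumours the adjusted p was 0.0625, from an exact sign-flip p of 0.0312, the smallest the remaining arrays allow. In the 3 primary T-LBL alone the mean was −0.30 ± 0.10 (SD, n = 3), with an exact p of 0.25, the smallest 3 arrays allow.

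The D/J/C part was also lower than the flank in 7 of 7 T-LBL, by a mean of −0.90 ± 0.33 (SD, n = 7; exact sign-flip p = 0.0156, adjusted 0.0312). M7 read −0.92, M9 −0.27, M12 −0.73, the secondary arrays −1.14, −1.27, −1.08 and −0.92, and M10 −0.12. Without the last probe of the interval the mean over the T-LBL was −0.42 with the same adjusted p.

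Secondary tumours read lower than primary tumours in the V part, with no overlap between the groups. The 3 primary arrays read −0.25 (M7), −0.18 (M9) and −0.40 (M12) and the 4 secondary arrays −0.54 to −0.68, a difference of −0.32 (exact permutation p = 0.0286, the smallest this design allows, adjusted 0.0857 over 6 tests), which did not pass the threshold of 0.05 after adjustment. Within the 1 scan that held both groups the difference was −0.44 (M9 against M12.49 and M12.52), and within the 1 slide −0.36 (M9 against M12.50). M9 was the only primary array in both, so neither includes the parent tumour M12. In the sample dye alone the difference was −0.23 (exact p = 0.0857, adjusted 0.171). With normexp background correction of both dyes it was also −0.23 (exact permutation p = 0.143, adjusted 0.375). With the sign of M12.53 turned it was −0.015 (exact p = 1.0), so it rests on the stated direction of that array. Turning the sign also turns the loss of M12.53 over the interval, −0.99 in the stated direction, into a gain. No window was called between secondary and primary T-LBL (limma, 0 of 22135, 0.0%), with 249 autosomal and 6 locus windows at an unadjusted limma p under 0.05. With the scan as a block 4 windows of the region were called, of 30 autosomal windows, and without M12 2 were called, of 23. In the D/J/C part the difference was −0.49 (exact p = 0.0286, adjusted 0.0857), with −0.86 within that scan and −0.99 within that slide, and without the last probe of the interval it turned to 0.051. In the sample dye alone it was −0.22 (exact p = 0.714), without M9 −0.32, and with the sign of M12.53 turned −0.031.

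The mouse 12 lineage read −0.56 ± 0.10 (SD, n = 5) in the V part, against −0.22 ± 0.05 (SD, n = 2) in M7 and M9, a difference of −0.34 (exact permutation p = 0.0476, the smallest this design allows, adjusted 0.0952). In the D/J/C part the difference was −0.48 (exact p = 0.0952, adjusted 0.125), with overlapping groups. It was −0.20 without M9 and −0.77 without M7. With the sign of M12.53 turned the differences were −0.10 in the V part and −0.12 in the D/J/C part. Without the last probe of the interval it turned to 0.22, M7 then being lower than the lineage.

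All 7 T-LBL lay below the myeloid sample in the V part, where M10 read 0.07 ± 0.03 (SE) and the T-LBL averaged −0.46 ± 0.19 (SD, n = 7). The difference of −0.54 had an exact permutation p of 0.125, the smallest that 7 arrays against 1 allow. No window was called between primary T-LBL and M10 (limma, 0 of 22135, 0.0%), with 106 autosomal and 4 locus windows at an unadjusted limma p under 0.05. Without M9 4 windows of the region were called and without M12 2, in each case the only autosomal windows called. M10 shared a slide with M7, and the difference within that slide was −0.32 in the V part and −0.73 in the D/J/C part. Within the scan that M10 shared with M12.50 and M12.53 these were −0.65 and −0.99.

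The flank showed no shift of the kind seen in the locus. The mean log2 ratio of its 231 probes was 0.08 ± 0.04 (SE) in M7 (225 values), 0.00 ± 0.01 in M9, 0.02 ± 0.02 in M10, −0.02 ± 0.02 in M12 and −0.01 ± 0.02, 0.02 ± 0.02, −0.02 ± 0.03 and −0.00 ± 0.02 in the secondary arrays. M7 was the highest and the other 7 lay between −0.02 and 0.02. The 13668 probes of chromosome 6 outside the region averaged between −0.04 and 0.04 on the 8 arrays.

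The depth of the loss was set beside another loss of the same tumours, at chr12:107329523-109293982 (103 probes, called in M12), because both are read in the same DNA. Its ends were taken from M12 alone, and whether the secondary arrays share them was not tested. The chromosome 12 loss averaged −0.64 ± 0.03 (SE) in M12 and −0.76 ± 0.03, −0.94 ± 0.03, −0.71 ± 0.04 and −0.79 ± 0.03 in the secondary arrays. The receptor interval minus the chromosome 12 loss was 0.01 in M12 and −0.16, 0.01, −0.36 and −0.20 in the secondary arrays. The mean difference was −0.14 ± 0.16 (SD, n = 5; exact sign-flip p = 0.25), below 0 in 3 of 5 arrays. Without the last probe of the interval it was −0.08, with M10 subtracted −0.30, without M12.52 −0.08 and with the sign of M12.53 turned −0.059. In the sample dye alone, set against M10, M12 read −0.99 on chromosome 6 and −0.61 on chromosome 12. All 5 arrays were then below 0, with a mean of −0.26 (exact sign-flip p = 0.0625, the smallest 5 arrays allow). The ratio of M10 itself was 0.06 ± 0.04 (SE) on chromosome 6 and −0.10 ± 0.03 on chromosome 12, a difference of 0.16. With M10 subtracted this difference enters every array alike, and its part in the sample dye values was not tested. In M7 and M9 the chromosome 12 stretch was at 0.07 ± 0.05 and −0.00 ± 0.02, so their shift on chromosome 6 came without one there. M9 shared its slide with M12.50, in which the chromosome 12 loss was −0.94.

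**Figure D5:**
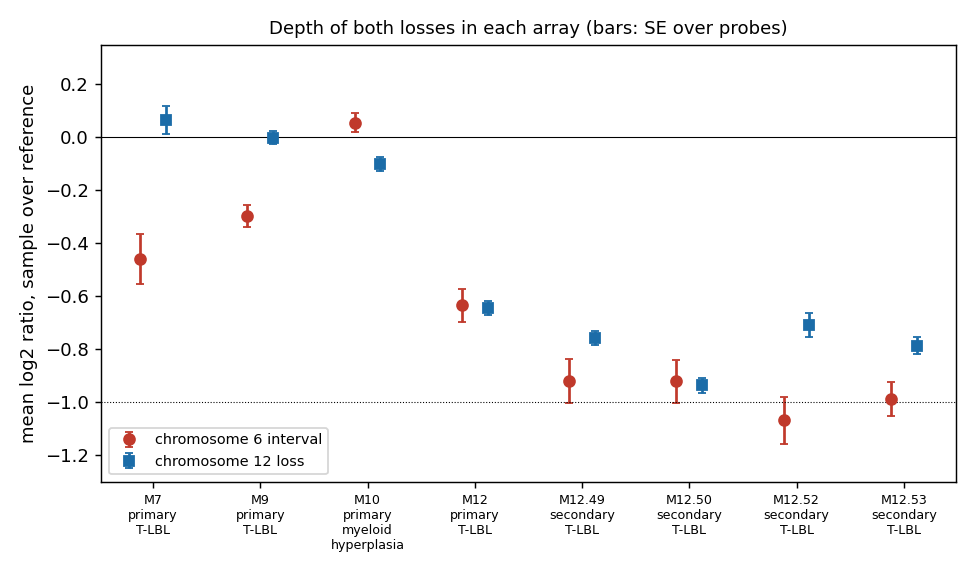
Mean log2 ratio of sample over reference (y axis) of the receptor interval on chromosome 6 (circles, 60 probes) and of the chromosome 12 loss (squares, 103 probes) in each of the 8 arrays (x axis), with bars for the SE over probes and a dotted line at −1. M7 and M9 are low on chromosome 6 alone, and the 5 lineage arrays are low on both. M10 lies at 0.06 on chromosome 6 and at −0.10 on chromosome 12.

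The probes of the locus that were lowest over the secondary arrays, beside the one at the last end, started at 41252584 and 41043508. The first read −1.60, −1.67, −2.88 and −1.05 in the secondary arrays, and −1.0 in M12, −1.58 in M7, −2.01 in M9 and −0.37 in M10. It was low in all 3 primary T-LBL as well, and M9 was lower there than 3 of the 4 secondary arrays. The second read −1.61, −1.40, −2.29 and −0.65 in the secondary arrays and −1.44 in M12, but also −0.58 in M9 and −0.62 in M10, and 1.16 in M7. The 3 highest, which started at 40850300, 40899877 and 40911551, all lay before the interval and averaged 0.24 to 0.41 over the secondary arrays. They were high in the myeloid M10 as well, at 0.70, 0.49 and 0.42. M9 read 0.51, 0.10 and 0.28 there, M12 0.17, 0.17 and 0.05, and M7 −0.60, 1.19 and 0.55.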

How the data were processed

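Per the labels, 8 genomic DNA samples were hybridised to Agilent comparative genomic hybridisation arrays (Cy5 sample, Cy3 reference). The authors deposited processed signal intensities of both dyes. Per the file headers, the software was Feature Extraction 10.5.1.1 and the headers hold statistics of a spatial detrending and a linear dye normalisation. The submitters' processing notes name Agilent Feature Extraction 9.1.1. The deposited series table holds the same log10 ratios as the array files. Positions are on mm9 in 7 files, and M12, on mm8, took them by probe name. No coordinate was converted.

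The log2 ratio of processed Cy5 over Cy3 was centred on each array's autosomal median, without control spots and without outlier-flagged spots. Chromosomes were segmented by penalised least squares (a penalty of 6 noise variances per natural log of the probe count, at least 3 probes, values limited to 3 SD from the median of the 11 nearest, neighbours closer than 0.15 merged), and called at an absolute mean of 0.25 over at least 5 probes. limma 3.58.1 (R 4.3.3) tested means of 10 probes over the whole genome, with an adjusted p under 0.05 as threshold. Group means used exact permutation tests (Python 3.11.15). Alternatives covered the signal, centring, filters, windows, blocks, left-out arrays and segmentation. The normexp alternative used median spot and background intensities with an offset of 50. The sign of M12.53, the last probe and the sample dye alone were alternatives chosen after seeing the data. Scripts were tested on simulated data. The named windows and probes were those that overlap the locus, flank the called ends, or are the 3 lowest and 3 highest by secondary mean. The region, its parts and these lists were chosen with earlier results of these data known. Each tumour has 1 array, and the number of arrays limits the precision.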

Additional observations from a re-analysis of the deposited data

Results flagged for a closer look

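Among the 4 secondary arrays, 34 values of the region were examined for an array that stands far from the other 3 (Dixon's gap test), which chance meets in about 1 of 20 groups. In 2 of them M12.53 stood apart. At the probe that starts at 40899877 it read −0.14, against 0.34 to 0.41 in the other 3, and at the probe that starts at 41010073, the last retained before the loss, it read −0.28, against 0.11 to 0.19. Both probes lie outside the loss.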

How the results depend on the processing

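The loss interval was called with the same ends in the 5 lineage arrays under 10 of 13 alternatives, the exceptions being normexp, M10 subtracted (first end of M12.53 at 41025051) and segmentation without limiting extreme values, which moved the last end to 41468618 in M12.49 and M12.50. With normexp a loss was called in 3 arrays, against 5, and 0 windows of the region were called for the secondary tumours. M12 and M12.49 lost their call, at interval means of −0.33 and −0.06. The SD of the autosomal log2 ratios was 0.0475 in M12.49, against 0.278 with the processed signals, but 0.39 in M12, against 0.275. The cause was not tested. In the V and D/J/C parts, secondary against primary was −0.23 and −0.20 with normexp. The lineage against M7 and M9 was −0.25 and −0.18, and T-LBL against myeloid −0.30 and −0.21. The adjusted exact permutation p of these group tests lay between 0.375 and 0.625. For the secondary tumours against the reference, the called windows of the region were 10 of 65 with windows of 5 probes (35 over the autosomes), 3 of 17 with windows of 20 (14), 10 of 321 with single probes (39), 32 of 33 with array weights (18736 of 22135 over the autosomes, in a fit that stopped before it converged) and 3 with origin as a random block (3), against 6 (23). Leaving out 1 array gave 4 to 7. For primary tumours against the reference they were 5 with M10 subtracted (371) and 0 to 4 leaving out 1 array. For secondary against primary they were 4 with the scan as a block (30) and 0 to 2 leaving out 1 array, and for primary against myeloid 5 with array weights (45) and 0 to 4.

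Locus minus flank over the T-LBL ranged from −0.51 to −0.44 in the V part and from −1.01 to −0.84 in the D/J/C part leaving out 1 array. The exact sign-flip p was 0.0312 whichever array was left out, the smallest 6 arrays allow. Adjusted over the 4 tests it was 0.0625 without a primary tumour. Without a secondary tumour the adjusted value was 0.0312, since the unchanged tests of the primary T-LBL were not adjusted with it. With the sign of M12.53 turned, locus minus flank was −0.29 and −0.64 (adjusted exact p = 0.25). In the V and D/J/C parts, secondary against primary was then −0.015 and −0.031, the lineage against M7 and M9 −0.10 and −0.12, T-LBL against myeloid −0.36 and −0.53, and chromosome 6 minus chromosome 12 −0.059. Without the last probe of the interval, the D/J/C differences turned to 0.051 for secondary against primary and to 0.22 for the lineage against M7 and M9. Arrays could not be paired between groups because the replicate numbers come from accession order and mark different mice.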
